A study of Homo sapiens with 8 samples.

Results

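Elesclomol (ES) is a small molecule that binds copper and ferries it across membranes. The comparison described here is its effect on gene expression in the control cells of WSU-DLCL2, an established human line of diffuse large B-cell lymphoma, a tumour of mature B cells. Control cells carry the genotype label WT. They were kept with ES at 15 nM (control ES, 2 libraries) or with its solvent DMSO (control DMSO, 2 libraries) for 48 h before total RNA was sequenced. The members are the gene rows with at least 1 FPKM, fragments per kilobase of gene model scaled to the size of the library, in at least 2 of these 4 libraries, which were 11260 of the 60592 rows in the files. Of these, 10462 reached 1 FPKM in all 4 libraries, 332 in 3, 144 in 1 library of each group, 287 only in the ES libraries and 35 only in the DMSO libraries. Close to the threshold, 189 members had their second-highest value between 1 and 1.1 FPKM (median of their mean levels 0.954 FPKM), and 188 rows just outside had it between 0.9 and 1 FPKM (median 0.873 FPKM). The labels name no vector for the control cells and no cultures for the libraries, so a p-value measures the spread between these libraries alone, which may be technical. The 4 libraries from cells overexpressing FDX1 (FDX1-OE, with DMSO or ES) helped to estimate that spread and are set beside the control cells at the end.

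Metal ions that enter a cell are bound by metallothioneins, small proteins rich in cysteine, whose genes are switched on by the zinc-sensing transcription factor MTF1. Copper delivered by ES is reduced in mitochondria with the help of ferredoxin 1 (FDX1), an iron-sulfur protein, and can bind enzymes that carry lipoic acid, which is toxic to cells. Damage to mitochondria or proteins is known to raise genes of amino acid supply through the transcription factor ATF4, and nucleic acids in the wrong compartment are known to raise antiviral genes through interferon signalling.

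The FPKM of the 4 libraries, a unit that is already scaled to library size, summed to between 446949 and 451027, and the 13 mRNAs of the mitochondrial genome held between 16.9% and 17.5% of it. Genes at 1 FPKM or more numbered 10815 and 10856 with DMSO and 11225 and 11320 with ES, and the 100 highest genes held 40.5% and 40.3% of all FPKM with DMSO and 39.2% and 38.3% with ES, so the groups did not overlap in either. An exact permutation test of 2 libraries against 2 cannot give a two-sided p below 0.333, so such values are described only. The 7 B-cell markers reported here (MS4A1, CD79A, CD79B, PAX5, CD22, BCL6 and MME) were all members, with summed levels of 1571 to 1603 FPKM. None of 10 T and NK cell markers and none of 9 myeloid markers was a member, and their sums stayed at or below 0.170 and 0.688 FPKM, with 6 and 3 of them at 0 in all 4 libraries. Of 8 epithelial and fibroblast markers only DCN, near 1 FPKM, was a member, and 4 were at 0. FDX1 itself was at 10.8 and 10.4 FPKM with DMSO and 9.88 and 10.0 FPKM with ES, a small difference that did not pass the test (log2 fold change -0.08, SE 0.06, adjusted p = 0.448).

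A gene was called when limma's adjusted p was below 0.05 over the 12063 rows tested in the series. With ES, 754 members rose and 120 fell, out of 11260. Over all rows tested, 7.74% were called, 6.74% higher and 1.00% lower, and the members make up most of those rows. Without adjustment, 3051 members had a p below 0.05. The rises were modest, with a median log2 fold change of 0.52 among members called higher and -0.35 among those called lower, and only 70 rose and 5 fell by at least 1. The ES libraries lay wholly above the DMSO libraries for 5347 members and wholly below for 2017 (48.2% and 17.1% of all rows tested), and the groups overlapped for 3896. Of the 287 members that passed the filter through the ES libraries alone, 116 were called, a count that the filter itself favours. Of the 35 that passed through the DMSO libraries alone, 7 were called, a count favoured in the same way. Of the 10462 members at 1 FPKM or more in all 4 libraries, 610 rose and 112 fell. Both counts hang on the spread estimated from so few libraries. Leaving out control DMSO replicate 1 gave 77 and 7, and leaving out control DMSO replicate 2 gave 53 and 7. With control ES replicate 1 omitted they were 137 and 20, and with control ES replicate 2 omitted 23 and 5, where the lone library left in a group is assumed to vary like the other groups. Without either FDX1-OE DMSO library they were 352 and 27, and without an FDX1-OE ES library at least 1752 and 464, although those libraries enter no group mean compared here. Of the 27 list counts of at least 3 calls in 1 direction, 26 fell by more than 1.5 times when at least 1 of the control libraries was left out, and the metallothioneins did not.

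The split between rises and falls depends on how the libraries are scaled. The median log2 fold change was 0.09 over all rows tested and 0.09 over the members, and median-ratio scaling, which sets the typical gene to no change, moved them to -0.00 and -0.01. With that scaling 389 members rose and 393 fell (3.61% and 3.27% of all rows tested), so the share of called members that were higher went from 86.3% to 49.7%. The shift also followed the level. The median log2 fold change was 0.17 in the quartile of members with the lowest mean level, 0.12 and 0.08 in the next 2, and 0.01 in the highest quartile, and with median-ratio scaling these became 0.09, 0.02, -0.03 and -0.11. Called rises numbered 287, 170, 163 and 134 and called falls 15, 5, 19 and 81 in these quartiles. The result under that scaling is given beside many, but not all, of the gene groups described here.

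**Figure D1:**
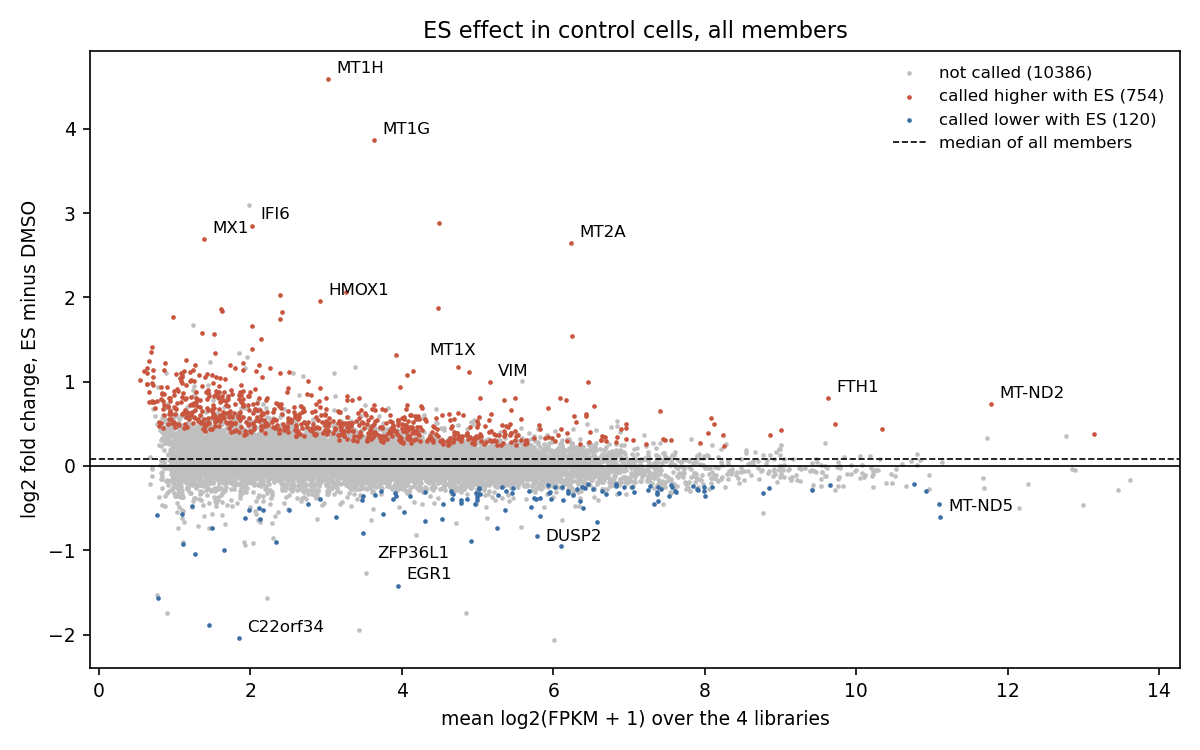
Each of the 11260 points is a member, with its mean log2(FPKM + 1) over the 4 control-cell libraries on the x axis and its log2 fold change, ES minus DMSO, on the y axis. Red points (754) were called higher, blue points (120) lower and grey points (10386) were not called, and the largest called rises are MT1H and MT1G while the largest called fall is C22orf34. C22orf34 passed the filter through the DMSO libraries alone.

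All 5 metallothioneins that were members rose, MT1H and MT1G more than any other called member, and the ES libraries lay wholly above the DMSO libraries in each. MT2A, the most abundant of them, was at 32.0 and 26.7 FPKM with DMSO and 186 and 189 FPKM with ES, a ratio of means of 6.39 (log2 fold change 2.64, SE 0.20, adjusted p = 0.000825). MT1H went from 1.12 and 0.286 FPKM, at the edge of detection in 1 DMSO library, to 38.2 and 39.5 FPKM with ES (log2 fold change 4.59, SE 0.23, adjusted p = 0.000253). MT1G was at 1.77 and 2.83 FPKM with DMSO and 43.6 and 49.5 FPKM with ES (log2 fold change 3.87, SE 0.23, adjusted p = 0.000253). In these 3 genes both ES libraries were close to each other and far above both DMSO libraries. MT1F was at 3.90 and 3.52 FPKM with DMSO and 18.0 and 19.2 FPKM with ES (log2 fold change 2.06, SE 0.18, adjusted p = 0.00173). MT1X, which had the highest DMSO level after MT2A, was at 16.1 and 17.8 FPKM with DMSO and 39.4 and 39.2 FPKM with ES, a smaller rise with a ratio of 2.32 (log2 fold change 1.17, SE 0.07, adjusted p = 0.000253). The 5 genes summed to 54.9 and 51.1 FPKM with DMSO and 325 and 337 FPKM with ES. The other 8 metallothionein genes stayed below the filter, 7 of them at 0 in all 4 libraries. These genes are near copies of each other, and how the authors' counting shared fragments among them is not given, so the split between them is uncertain. All 5 calls held with median-ratio scaling and without any 1 of the 8 libraries.

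Of the 5, MT2A, MT1X and MT1H have a promoter window in the RefSeq table (build GRCh38.p14), shown here because the genes rose together and because the windows can be read for the element that MTF1 binds. The windows hold the 250 bases before each annotated start on chromosome 16, plus strand, MT2A at chr16:56608334-56608583, MT1X at chr16:56682220-56682469 and MT1H at chr16:56669564-56669813. Capitals mark every match, on either strand, to the metal response element core TGCACNC or TGCGCNC.
MT2A: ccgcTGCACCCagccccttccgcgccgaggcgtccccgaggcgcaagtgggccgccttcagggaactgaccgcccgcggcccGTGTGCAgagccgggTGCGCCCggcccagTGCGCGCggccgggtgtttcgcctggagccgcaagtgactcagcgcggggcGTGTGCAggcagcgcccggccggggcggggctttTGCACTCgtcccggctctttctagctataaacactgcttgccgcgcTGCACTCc
MT1X: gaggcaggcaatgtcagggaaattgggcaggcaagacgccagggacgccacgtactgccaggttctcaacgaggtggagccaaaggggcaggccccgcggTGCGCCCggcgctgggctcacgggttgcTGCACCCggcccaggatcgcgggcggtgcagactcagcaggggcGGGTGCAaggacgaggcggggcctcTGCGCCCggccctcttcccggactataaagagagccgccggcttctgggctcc
MT1H: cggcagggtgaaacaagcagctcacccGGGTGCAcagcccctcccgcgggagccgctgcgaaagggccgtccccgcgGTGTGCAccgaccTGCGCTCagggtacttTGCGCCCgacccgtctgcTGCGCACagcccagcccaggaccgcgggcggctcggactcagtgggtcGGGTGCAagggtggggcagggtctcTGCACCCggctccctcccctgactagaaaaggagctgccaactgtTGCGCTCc
MT2A had 7 matches, MT1X 4 and MT1H 8, and none of them overlapped another. At least 1 match was found in 24.83% of all 35116 windows in the table and in 40.12% of the 8358 members with a window, at least 4 in 0.370% and at least 6 in 0.0513% of all windows. Each member counted by its window with the most matches and all windows counted singly, so these shares are unlike measures. MT1X had the fewest matches of the 3 and the smallest fold change, but a link between them was not tested. The split of fragments among these near copies is uncertain, and so is the order of their fold changes. A match is a run of letters and does not show that a factor was bound.

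The other lists of metal traffic had 1 call or none each, beside 7.74% of all rows tested. A difference from that share was not tested. MTF1, the zinc sensor, was at 4.66 and 4.24 FPKM with DMSO and 4.53 and 4.90 FPKM with ES (log2 fold change 0.07, adjusted p = 0.66). None of the 18 members among MTF1 and the zinc transporters was called, with 8 wholly higher and 4 wholly lower (48.2% and 17.1% over all rows tested), and median-ratio scaling called 2 of them lower. SLC30A1, which exports zinc, was at 2.68 and 2.63 FPKM with DMSO and 2.69 and 2.91 FPKM with ES (log2 fold change 0.06, adjusted p = 0.737); MTF1 and SLC30A1 were picked out after their values were seen. The importers SLC39A9 (log2 fold change 0.47, adjusted p = 0.0505) and SLC39A4 (log2 fold change -0.51, adjusted p = 0.0521) had the smallest p of the list and moved in opposite directions. Of 14 copper transporters and chaperones 1 rose, COMMD1, a protein of copper export, at 8.06 and 7.66 FPKM with DMSO and 13.2 and 11.2 FPKM with ES (log2 fold change 0.57, SE 0.09, adjusted p = 0.0163), and none fell. Of 19 members of the lipoylation pathway and its ferredoxins 1 rose, BCKDHA, a subunit of the branched-chain keto acid dehydrogenase, at 25.7 and 28.1 FPKM with DMSO and 34.7 and 34.6 FPKM with ES (log2 fold change 0.35, adjusted p = 0.0309). That call was lost with median-ratio scaling (adjusted p = 0.0898). The median log2 fold change of these 19 was 0.07, close to that of all rows tested, and -0.03 with median-ratio scaling.

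**Figure D2:**
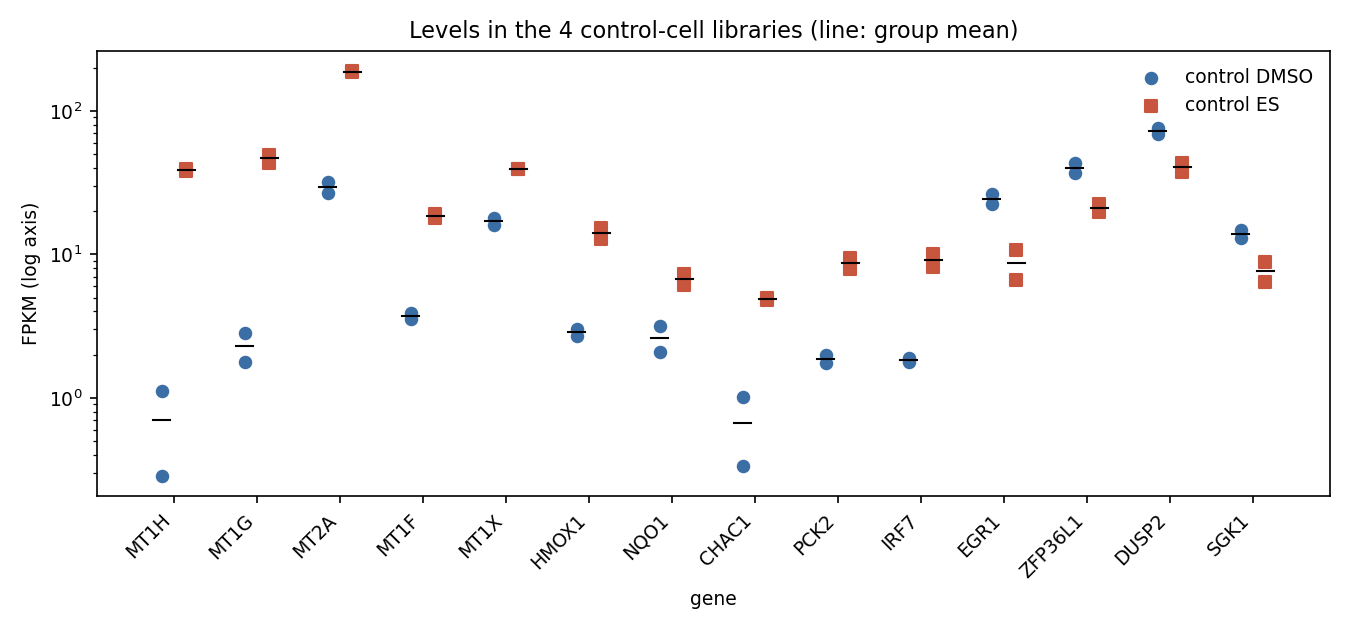
FPKM on a log axis for 14 genes in each of the 4 control-cell libraries, DMSO as blue circles and ES as red squares, with a line at each group's mean. MT1H to IRF7 lie higher in both ES libraries and EGR1, ZFP36L1, DUSP2 and SGK1 lie lower, with no overlap in any of the 14.

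Genes of haem breakdown and iron storage were among the called rises. NRF2 is the transcription factor that answers oxidants. Of its 23 target genes 6 rose and none fell, beside 6.74% and 1.00% of all rows tested. The list's median log2 fold change of 0.06 lay below that of all rows tested. HMOX1, the enzyme that breaks down haem, was at 3.01 and 2.70 FPKM with DMSO and 12.8 and 15.2 FPKM with ES (log2 fold change 1.96, SE 0.15, adjusted p = 0.000825). NQO1, a quinone reductase, was at 3.15 and 2.10 FPKM with DMSO and 6.15 and 7.34 FPKM with ES (log2 fold change 1.11, SE 0.15, adjusted p = 0.00978). EPHX1, an epoxide hydrolase, passed the filter through the ES libraries alone, at 0.792 and 0.571 FPKM with DMSO against 1.97 and 1.90 FPKM with ES (log2 fold change 0.81, adjusted p = 0.0172). In all 3 the lower ES library was well above the higher DMSO library. The ferritin chains, which store iron, rose from a high level. FTH1, the heavy chain, was at 597 and 595 FPKM with DMSO and 980.3 and 1114 FPKM with ES (log2 fold change 0.81, SE 0.11, adjusted p = 0.0105), and FTL, the light chain, was at 717 and 697 FPKM with DMSO and 982 and 1011 FPKM with ES (log2 fold change 0.49, SE 0.08, adjusted p = 0.0141). SLC7A11, the cystine importer, was at 1.18 and 1.14 FPKM with DMSO and 2.30 and 2.58 FPKM with ES (log2 fold change 0.67, adjusted p = 0.0193). These 6 calls held with median-ratio scaling, where 1 target fell and the list's median became -0.05. Without control DMSO replicate 1 or 2 the calls were 2 and 1, and without control ES replicate 1 or 2 they were 3 and 1. Other classical targets did not pass, among them TXNRD1 at 57.2 and 59.0 FPKM with DMSO and 61.2 and 62.4 FPKM with ES (log2 fold change 0.09, adjusted p = 0.333), GCLM (log2 fold change 0.18, adjusted p = 0.309) and SRXN1 (log2 fold change -0.14, adjusted p = 0.324), named after their values were seen.

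Some genes of peroxide removal, iron traffic and iron-sulfur cluster assembly were called, beside 7.74% of all rows tested. Of 23 peroxide and superoxide enzymes 3 rose, the mitochondrial thioredoxin reductase TXNRD2 at 4.03 and 4.17 FPKM with DMSO and 6.73 and 7.72 FPKM with ES (log2 fold change 0.69, adjusted p = 0.0416) and the sestrins SESN2 and SESN3. Median-ratio scaling kept 1 of those 3. Of the 23, 2 passed the filter through the ES libraries alone, 1 of them called (SESN3), and of the other 21 there were 2 called. Among 16 iron-handling genes the ferritins were the 2 that rose, and PCBP1, which delivers iron to ferritin and binds RNA, fell from 290.0 and 290.3 FPKM to 236 and 217 FPKM (log2 fold change -0.36, SE 0.06, adjusted p = 0.0174). The scaffold protein of cluster assembly, ISCU, was at 25.4 and 25.3 FPKM with DMSO and 36.4 and 38.1 FPKM with ES (log2 fold change 0.54, SE 0.06, adjusted p = 0.005), and BOLA3, which helps to hand on clusters, rose by 0.40 (adjusted p = 0.0343), the 2 calls among 24. ISCU kept its call with median-ratio scaling and BOLA3 did not (adjusted p = 0.0918). Heat shock genes had 2 rises and 1 fall among 24, and 1 rise and 4 falls with median-ratio scaling. HSPB1, a small heat shock protein, was at 10.6 and 9.30 FPKM with DMSO and 15.1 and 17.6 FPKM with ES (log2 fold change 0.66, adjusted p = 0.0231), while HSPA1A, the inducible chaperone, was at 8.68 and 7.45 FPKM with DMSO and 11.2 and 10.4 FPKM with ES and did not pass (log2 fold change 0.39, adjusted p = 0.0564). The mitochondrial chaperones, proteases and import proteins had no rise and 1 fall among 37, TRAP1 (log2 fold change -0.22, adjusted p = 0.0484). Median-ratio scaling called 3 of the 37 lower.

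Many targets of ATF4, enzymes and transporters of amino acid supply, rose. Of 31 targets 13 rose and none fell, beside 6.74% and 1.00% of all rows tested. The list's median log2 fold change was 0.25, against 0.09 for all rows tested. Of the 31, 3 passed the filter through the ES libraries alone, and of the other 28 there were 11 called. PCK2, the mitochondrial enzyme that makes phosphoenolpyruvate, was at 1.75 and 2.00 FPKM with DMSO and 7.93 and 9.40 FPKM with ES (log2 fold change 1.75, SE 0.15, adjusted p = 0.00149). CHAC1, which degrades glutathione, was at 0.336 and 1.01 FPKM with DMSO and 4.94 and 4.78 FPKM with ES (log2 fold change 1.84, SE 0.23, adjusted p = 0.00753). ATF5, a related transcription factor, was at 70.1 and 73.1 FPKM with DMSO and 118 and 117 FPKM with ES (log2 fold change 0.71, SE 0.07, adjusted p = 0.00331). Both ES libraries were above both DMSO libraries in each. WARS1, the tryptophan tRNA synthetase, was at 31.4 and 29.1 FPKM with DMSO and 51.2 and 53.8 FPKM with ES (log2 fold change 0.78, SE 0.08, adjusted p = 0.00397), and it was the only one of 23 cytosolic tRNA synthetases to rise, while VARS1 fell (log2 fold change -0.25, adjusted p = 0.0435). CTH, which makes cysteine, was at 1.38 and 1.93 FPKM with DMSO and 4.08 and 4.21 FPKM with ES (log2 fold change 0.96, adjusted p = 0.00573), and SLC6A9, a glycine transporter, at 0.230 and 0.206 FPKM with DMSO and 1.50 and 1.88 FPKM with ES (log2 fold change 1.14, adjusted p = 0.00397). Serine synthesis had 2 rises among 16 genes of serine and one-carbon metabolism, PSAT1 (log2 fold change 0.49, adjusted p = 0.0189) and PHGDH (log2 fold change 0.34, adjusted p = 0.0397). With median-ratio scaling 12 of the 13 calls held, and PHGDH was lost (adjusted p = 0.117). Without any 1 of control DMSO replicates 1 and 2 and control ES replicate 1 there were 6 calls, and without control ES replicate 2 there was 1.

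ATF4 was at 260.4 and 241 FPKM with DMSO and 292 and 304 FPKM with ES (log2 fold change 0.25, adjusted p = 0.129). DDIT3, which encodes the stress factor CHOP, was at 9.12 and 5.39 FPKM with DMSO and 5.93 and 5.25 FPKM with ES and TRIB3 at 19.1 and 19.1 FPKM with DMSO and 20.8 and 21.8 FPKM with ES, neither called (log2 fold change -0.29, adjusted p = 0.339 and log2 fold change 0.15, adjusted p = 0.456). These 3 were picked out after their values were seen. Genes of endoplasmic reticulum stress had no rise among 22 and 2 falls. HSPA5, the main chaperone of that compartment, was at 193 and 180.2 FPKM with DMSO and 139.9 and 132 FPKM with ES (log2 fold change -0.45, SE 0.10, adjusted p = 0.0388), and its partner SDF2L1 was at 42.1 and 42.9 FPKM with DMSO and 32.9 and 33.6 FPKM with ES (log2 fold change -0.34, SE 0.06, adjusted p = 0.0191). Both falls held with median-ratio scaling, which called 5 of the 22 lower. Of 24 targets of p53, 2 rose, TP53I3 at 0.432 and 0.736 FPKM with DMSO and 1.63 and 1.46 FPKM with ES (log2 fold change 0.69, adjusted p = 0.0388) and SESN2, which is also on the ATF4 list (log2 fold change 0.55, adjusted p = 0.0239). Median-ratio scaling called 1 of the 24 higher. Of the 24, 2 passed the filter through the ES libraries alone, 1 of them called (TP53I3), and of the other 22 there was 1 called. Over all rows tested 6.74% were called higher and 1.00% lower. Among 15 genes of the BCL2 family of death regulators 1 rose, the pro-death member BMF, at 12.5 and 11.8 FPKM with DMSO and 18.7 and 21.3 FPKM with ES (log2 fold change 0.67, SE 0.10, adjusted p = 0.0124), and it held with median-ratio scaling.

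CHAC1 is shown because the ATF4 targets rose together and its window holds the element that ATF4 binds. The 250 bases before its start lie on chromosome 15, plus strand, at chr15:40953221-40953470 (GRCh38.p14). Capitals mark the match to the amino acid response element TGATGNAA, searched on both strands.
CHAC1: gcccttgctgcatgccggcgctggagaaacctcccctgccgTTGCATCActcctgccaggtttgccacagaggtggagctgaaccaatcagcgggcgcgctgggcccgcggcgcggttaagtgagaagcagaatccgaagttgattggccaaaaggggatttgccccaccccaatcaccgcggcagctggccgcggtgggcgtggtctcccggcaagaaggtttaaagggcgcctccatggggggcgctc
The match reads on the minus strand. It was present in 5 of 26 ATF4 targets with a window, in 3.14% of all windows and in 2.00% of the members with a window, and the search did not ask whether it overlapped other motifs.

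Interferon-stimulated genes encode antiviral proteins and parts of the signalling chain itself. Of 59 listed 42 were members, and 29 of them rose, 15 from below 1 FPKM in both DMSO libraries. None fell and 13 did not pass, while 6.74% of all rows tested were called higher. In all 42 the ES libraries lay wholly above the DMSO libraries, beside 48.2% of all rows tested. The median log2 fold change of the 42 was 0.74. Because 15 of the 42 passed the filter only through the ES libraries and so had to differ, the other 27 are the plainer count. Of these 14 rose, all 27 lay wholly higher, and their median was 0.50. Of the 17 listed genes below the filter, 14 also lay wholly higher with ES, at no more than 0.993 FPKM. In median-ratio scaling 24 of the 42 rose and none fell, a count not split by how a member passed the filter. The calls were 9 and 6 without control DMSO replicate 1 or 2, and 10 and 3 without control ES replicate 1 or 2, while the median stayed between 0.58 and 1.05 in all 16 alternatives.

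MX1, a dynamin-like antiviral protein, was at 0.0212 and 0.0356 FPKM with DMSO and 5.96 and 5.35 FPKM with ES (log2 fold change 2.69, SE 0.19, adjusted p = 0.000622). IFI6, a protein that protects against viruses at the endoplasmic reticulum, was at 0.341 and 0.699 FPKM with DMSO and 10.4 and 9.45 FPKM with ES (log2 fold change 2.85, SE 0.23, adjusted p = 0.000913). USP18, which removes ISG15 from proteins and damps the interferon receptor, was at 0.0528 and 0.0871 FPKM with DMSO and 3.26 and 2.11 FPKM with ES (log2 fold change 1.77, adjusted p = 0.0048). MX1, IFI6 and USP18 were below 1 FPKM in both DMSO libraries and passed the filter through the ES libraries alone, so they had to differ. The same holds for IFIT3, at 0.0137 and 0.0499 FPKM with DMSO and 1.47 and 1.42 FPKM with ES (log2 fold change 1.25, adjusted p = 0.00462), and IFI44, at 0.0728 and 0.0491 FPKM with DMSO and 1.26 and 1.30 FPKM with ES (log2 fold change 1.10, adjusted p = 0.00397). OAS2, which makes the activator of RNase L, was at 1.61 and 2.12 FPKM with DMSO and 5.08 and 5.39 FPKM with ES (log2 fold change 1.13, adjusted p = 0.00532). Several abundant members of the list did not pass, and their shifts were small beside the rest. ISG15, the ubiquitin-like modifier, was at 93.4 and 95.0 FPKM with DMSO and 127 and 147 FPKM with ES (log2 fold change 0.53, adjusted p = 0.149). BST2, which tethers viruses to the cell surface, was at 67.9 and 58.6 FPKM with DMSO and 72.7 and 74.9 FPKM with ES (log2 fold change 0.22, adjusted p = 0.256), and the RNA editor ADAR at 73.2 and 73.5 FPKM with DMSO and 82.3 and 81.8 FPKM with ES (log2 fold change 0.16, adjusted p = 0.184). These 3 were named after their values were seen.

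**Figure D3:**
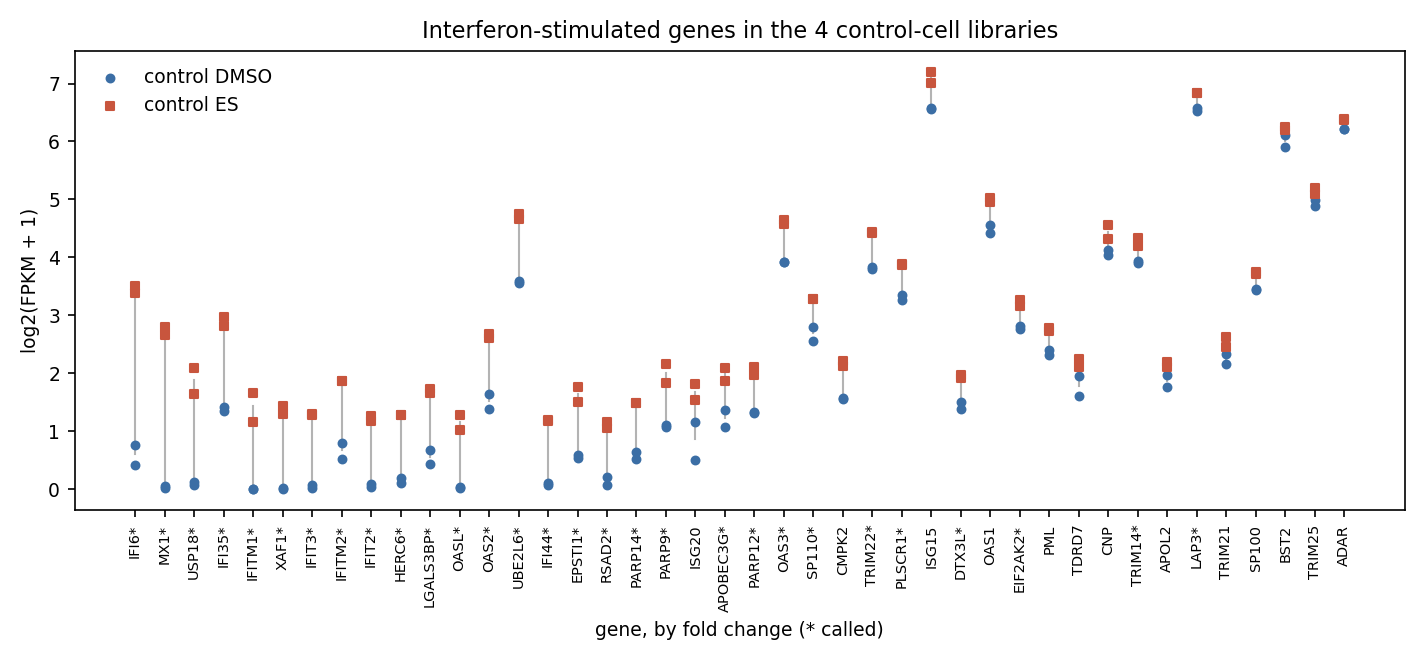
The 42 interferon-stimulated genes that were members, ordered by log2 fold change, with log2(FPKM + 1) in each control-cell library on the y axis (DMSO blue circles, ES red squares, a grey line joining the group means, and a star for each of the 29 genes called). All 42 lie higher in both ES libraries, and 15 of them were below 1 FPKM in both DMSO libraries.

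Windows of 3 called genes are shown because so many members of the list rose together. All 3 passed the filter through the ES libraries alone. Each holds the 250 bases before the start in GRCh38.p14, IFI6 at chr1:27672193-27672442 on the minus strand, IFIT3 at chr10:89327747-89327996 and IFI44 at chr1:78649539-78649788 on the plus strand. IFIT3 and IFI44 have 2 annotated starts each, and for both the window with the most matches is shown. Capitals mark matches on either strand to GAAANNGAAA, the core of the interferon-stimulated response element.
IFI6: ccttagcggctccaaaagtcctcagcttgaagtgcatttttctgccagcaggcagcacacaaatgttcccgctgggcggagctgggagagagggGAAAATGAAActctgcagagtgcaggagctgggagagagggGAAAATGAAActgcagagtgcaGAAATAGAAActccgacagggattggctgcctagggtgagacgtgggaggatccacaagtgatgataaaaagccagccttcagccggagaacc
IFIT3: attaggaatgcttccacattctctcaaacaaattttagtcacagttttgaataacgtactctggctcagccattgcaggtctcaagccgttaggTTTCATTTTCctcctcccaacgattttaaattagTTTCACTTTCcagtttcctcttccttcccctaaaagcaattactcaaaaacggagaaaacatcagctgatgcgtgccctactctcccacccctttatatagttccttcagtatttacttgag
IFI44: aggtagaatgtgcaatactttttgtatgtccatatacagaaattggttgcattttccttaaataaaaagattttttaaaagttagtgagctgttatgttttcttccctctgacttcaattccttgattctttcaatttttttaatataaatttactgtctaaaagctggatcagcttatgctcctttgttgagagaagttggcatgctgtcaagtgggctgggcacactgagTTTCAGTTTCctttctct
IFI6 had 3 matches, IFIT3 2 and IFI44 1. Of 33 listed members with a window 18 had at least 1 match (54.5%), against 3.31% of all 8358 members with a window. In both, a gene counted by its window with the most matches. Of all windows, counted singly and so an unlike measure, 3.02% had a match. Overlap with other motifs was not searched.

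The signalling chain above these genes moved in part. Of 31 interferon regulators and nucleic acid sensors 5 rose and none fell, beside 6.74% and 1.00% of all rows tested. The median of the list was 0.17. Of the 31, 3 passed the filter through the ES libraries alone, 1 of them called (DDX58), and of the other 28 there were 4 called. IRF7, a factor that amplifies interferon production, was at 1.90 and 1.77 FPKM with DMSO and 8.19 and 10.0 FPKM with ES (log2 fold change 1.83, SE 0.21, adjusted p = 0.0046). IRF9 was at 1.34 and 1.12 FPKM with DMSO and 2.47 and 2.64 FPKM with ES (log2 fold change 0.68, adjusted p = 0.0226) and STAT2, its partner in the complex that carries the interferon signal to DNA, at 8.64 and 8.11 FPKM with DMSO and 12.9 and 13.7 FPKM with ES (log2 fold change 0.61, adjusted p = 0.0411). The libraries of each of these 3 were separate between the groups. The RNA sensor RIG-I, listed as DDX58, was at 0.312 and 0.231 FPKM with DMSO and 1.15 and 1.14 FPKM with ES (log2 fold change 0.75, adjusted p = 0.0191) and IL10RB, a shared receptor chain, at 7.38 and 7.91 FPKM with DMSO and 12.1 and 12.7 FPKM with ES (log2 fold change 0.63, adjusted p = 0.00864). Median-ratio scaling kept 4 of the 5 and lost STAT2 (adjusted p = 0.0707). Without control DMSO replicate 1 or 2 there was 1 call, without control ES replicate 1 there were 2 and without control ES replicate 2 none. No interferon gene was a member. Of 21 interferon ligand rows 20 were at 0 in all 4 libraries, and IFNB1 was at 0.0373 FPKM in 1 ES library and 0 in the others.

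Of 20 members of MHC class I presentation, which shows internal peptides to killer cells, 6 rose and none fell, while of 17 members of class II presentation none was called. Over all rows tested 6.74% were called higher and 1.00% lower. The difference between the 2 lists was not tested. HLA-B was at 48.7 and 45.6 FPKM with DMSO and 73.8 and 78.9 FPKM with ES (log2 fold change 0.68, adjusted p = 0.0376) and HLA-C at 35.4 and 32.0 FPKM with DMSO and 51.9 and 55.9 FPKM with ES (log2 fold change 0.66, adjusted p = 0.0454). B2M, the shared light chain, was at 269 and 261 FPKM with DMSO and 349 and 334 FPKM with ES (log2 fold change 0.37, SE 0.07, adjusted p = 0.0214). NLRC5, the activator of class I genes, was at 1.77 and 2.07 FPKM with DMSO and 3.65 and 4.06 FPKM with ES (log2 fold change 0.74, adjusted p = 0.022), and the peptide trimmer ERAP2 at 6.07 and 6.32 FPKM with DMSO and 9.65 and 10.8 FPKM with ES (log2 fold change 0.64, SE 0.09, adjusted p = 0.00958). The sixth was the proteasome activator PSME1 (log2 fold change 0.34, adjusted p = 0.0278). With median-ratio scaling only ERAP2 and NLRC5 kept the call and 1 member, CALR, a chaperone also on the stress list, fell (adjusted p = 0.0383). HLA genes resemble each other closely, so their values are uncertain. Without control ES replicate 1 there was 1 call, and without any 1 of the other 3 control libraries there was none. In class II, HLA-DRA was at 293 and 292 FPKM with DMSO and 295 and 309 FPKM with ES (log2 fold change 0.04, adjusted p = 0.669), and the median of the 17 was 0.03, or -0.07 with median-ratio scaling.

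**Figure D4:**
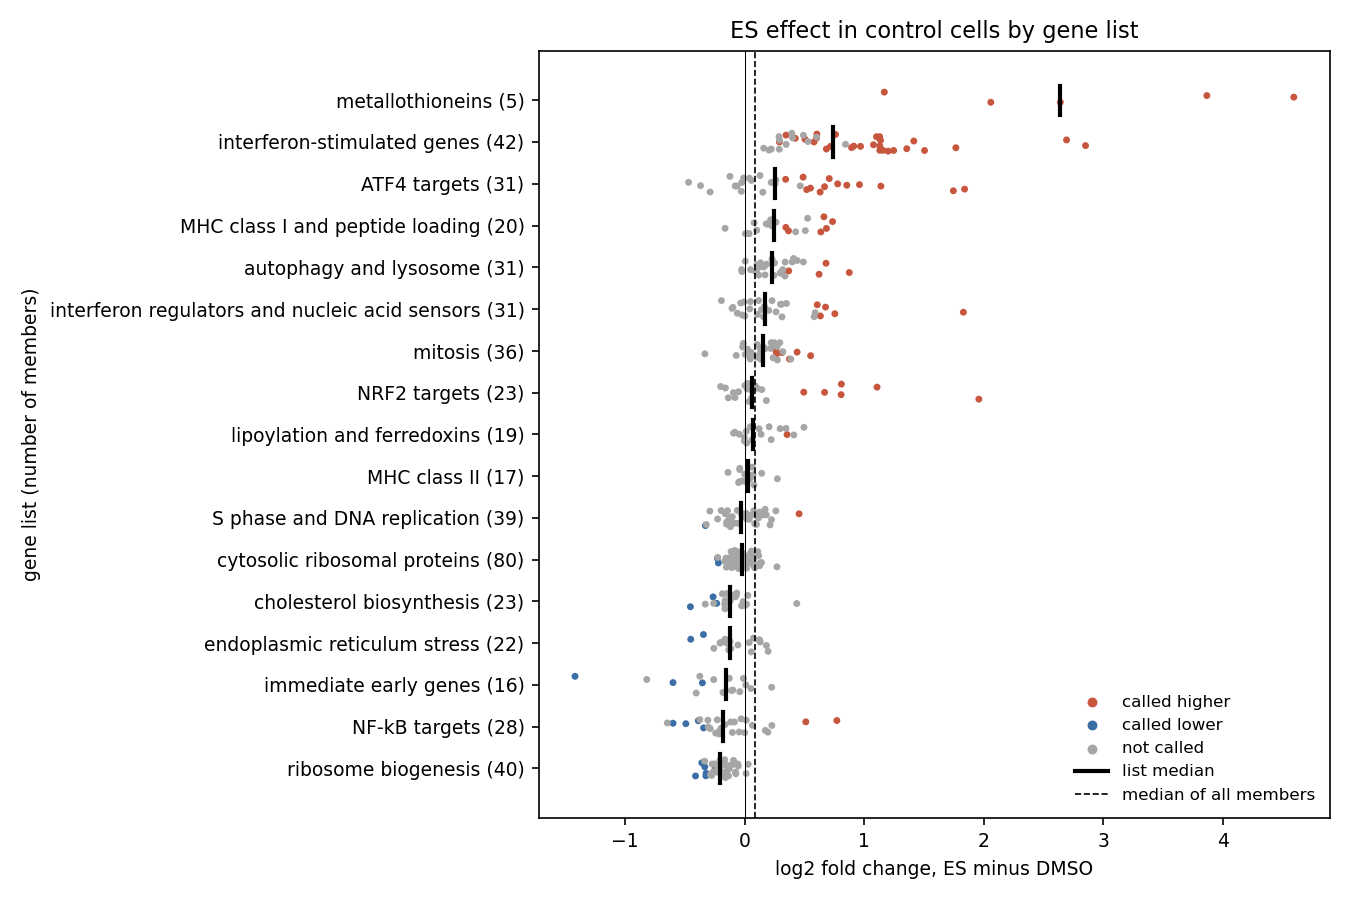
Log2 fold change, ES minus DMSO, of each member of 17 gene lists, red where called higher, blue where called lower and grey where not called, with a black bar at the list median and a dashed line at the median of all members (0.09). List medians run from 2.64 for metallothioneins and 0.74 for interferon-stimulated genes to -0.21 for ribosome biogenesis. Without members that passed the filter through the ES libraries alone, the interferon-stimulated genes had a median of 0.50.

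Immediate early genes, which answer growth and receptor signals within minutes, had no rise and 3 falls among 16 members, and a median of -0.15. Over all rows tested 6.74% were called higher and 1.00% lower. EGR1, a transcription factor of this class, was at 26.3 and 22.4 FPKM with DMSO and 10.7 and 6.60 FPKM with ES, a ratio of 0.356 (log2 fold change -1.42, SE 0.21, adjusted p = 0.0124). FOS was at 28.1 and 19.3 FPKM with DMSO and 18.7 and 8.62 FPKM with ES, and its groups did not overlap, but the spread was wide and it was not called (log2 fold change -0.82, adjusted p = 0.131). JUNB was at 50.1 and 48.5 FPKM with DMSO and 38.6 and 37.0 FPKM with ES (log2 fold change -0.37, adjusted p = 0.0642). IER2 was at 75.2 and 63.0 FPKM with DMSO and 44.4 and 45.8 FPKM with ES (log2 fold change -0.60, adjusted p = 0.0276) and KLF10 at 12.1 and 11.4 FPKM with DMSO and 9.24 and 8.71 FPKM with ES (log2 fold change -0.35, adjusted p = 0.0399). All 3 falls of the list held with median-ratio scaling, which called 5 of the 16. Without control DMSO replicate 1 or 2 or control ES replicate 2 none was called, without control ES replicate 1 there were 2 and without either FDX1-OE DMSO library 1. The phosphatase DUSP2, which switches off MAP kinases in lymphocytes, was at 75.8 and 69.2 FPKM with DMSO and 43.2 and 37.7 FPKM with ES (log2 fold change -0.83, SE 0.09, adjusted p = 0.0046). ZFP36L1, a protein that speeds the decay of mRNAs, was at 43.4 and 36.9 FPKM with DMSO and 22.5 and 19.7 FPKM with ES (log2 fold change -0.89, SE 0.10, adjusted p = 0.0046), and ZFP36L2 was at 32.0 and 32.6 FPKM with DMSO and 25.9 and 23.2 FPKM with ES (log2 fold change -0.39, adjusted p = 0.026). These were the 3 falls among 16 genes of the DUSP and ZFP36 families, with no rise, and they held with median-ratio scaling, while without control ES replicate 2 none was called. DUSP1, the best known of the phosphatases, was at 5.04 and 3.85 FPKM with DMSO and 3.75 and 3.01 FPKM with ES and did not pass (log2 fold change -0.31, adjusted p = 0.168).

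The EGR1 window is shown because EGR1 had the largest fall of the list. It holds the 250 bases before the start on chromosome 5, plus strand, at chr5:138465229-138465478 (GRCh38.p14), with matches to the CArG box, the element bound by serum response factor, in capitals.
EGR1: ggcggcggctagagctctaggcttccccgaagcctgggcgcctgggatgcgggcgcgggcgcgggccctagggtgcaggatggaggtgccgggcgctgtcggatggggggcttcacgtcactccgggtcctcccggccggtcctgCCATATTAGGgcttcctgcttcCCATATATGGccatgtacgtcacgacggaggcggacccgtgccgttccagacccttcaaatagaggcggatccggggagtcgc
The window had 2 matches. A CArG box was found in 1.16% of all windows, in 1.45% of the members with a window and in 2 of 14 immediate early genes with one, on either strand, and overlap with other motifs was not searched. SRF, which encodes the factor, was at 24.9 and 23.8 FPKM with DMSO and 21.2 and 19.2 FPKM with ES (log2 fold change -0.26, adjusted p = 0.0888).

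Targets of NF-kB, the factor downstream of B-cell and innate receptors, moved in both directions. There were 2 rises and 4 falls among 28, beside 6.74% and 1.00% of all rows tested, and the median was -0.18. NFKBIA, the inhibitor that NF-kB induces, was at 60.1 and 61.6 FPKM with DMSO and 41.5 and 44.6 FPKM with ES (log2 fold change -0.49, SE 0.09, adjusted p = 0.0191). LTA, the cytokine lymphotoxin alpha, was at 84.9 and 86.7 FPKM with DMSO and 69.9 and 64.9 FPKM with ES (log2 fold change -0.34, adjusted p = 0.0385), and CD83, a surface marker of activated B cells, was at 64.9 and 58.6 FPKM with DMSO and 43.3 and 50.8 FPKM with ES (log2 fold change -0.39, adjusted p = 0.0372). The fourth was IER2. Among the rises, the chemokine CCL22 passed the filter through the ES libraries only, at 0.235 and 0.255 FPKM with DMSO against 1.01 and 1.24 FPKM with ES (log2 fold change 0.77, adjusted p = 0.0124), and IRF4, which drives plasma cell fate, was at 1.92 and 1.75 FPKM with DMSO and 2.84 and 3.25 FPKM with ES (log2 fold change 0.51, adjusted p = 0.0414). With median-ratio scaling IRF4 was lost (adjusted p = 0.0631) and 6 of the 28 fell, while leaving out any 1 control library left no fall and leaving out either FDX1-OE DMSO library left 1. Of 5 members on the list of chemokines and their receptors 3 rose, 1 of them CCL22, and none without control DMSO replicate 1 or 2 or control ES replicate 2. A chemokine outside that list, CCL3L3, fell and is given with the largest falls. CCL5, which attracts T cells, was at 0.985 and 1.06 FPKM with DMSO and 2.98 and 3.44 FPKM with ES (log2 fold change 1.06, SE 0.13, adjusted p = 0.00773), and CXCR4, the receptor that guides B cells in lymphoid tissue, was at 37.0 and 37.0 FPKM with DMSO and 47.8 and 49.7 FPKM with ES (log2 fold change 0.39, adjusted p = 0.022), the latter lost with median-ratio scaling (adjusted p = 0.058). The regulator of G protein signalling RGS16 fell from 28.9 and 26.8 FPKM to 20.4 and 15.2 FPKM (log2 fold change -0.63, adjusted p = 0.0243).

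Counts of B-cell genes are given here beside 6.74% called higher and 1.00% called lower over all rows tested. Of 28 identity and germinal centre genes 1 rose, CD72, a co-receptor that restrains B cells, at 13.3 and 12.8 FPKM with DMSO and 17.3 and 18.3 FPKM with ES (log2 fold change 0.42, adjusted p = 0.0218), and none fell. With median-ratio scaling 5 fell, among them BCL6, the master regulator of germinal centre B cells, at 123 and 125 FPKM with DMSO and 109 and 111 FPKM with ES (log2 fold change -0.17, adjusted p = 0.084 as deposited, 0.0249 with that scaling), and CD22 at 329.8 and 341 FPKM with DMSO and 295 and 272 FPKM with ES (0.0269 with that scaling). In B-cell receptor signalling 3 of 22 rose and 1 fell, or 2 and 3 with median-ratio scaling. PTPN6, the phosphatase SHP-1 that dampens the receptor, was at 50.0 and 47.1 FPKM with DMSO and 35.3 and 31.8 FPKM with ES (log2 fold change -0.52, SE 0.07, adjusted p = 0.0107). The kinase BLK was at 103 and 105 FPKM with DMSO and 144 and 150.5 FPKM with ES (log2 fold change 0.50, SE 0.08, adjusted p = 0.0156), the adaptor DAPP1 at 13.5 and 13.0 FPKM with DMSO and 17.6 and 19.8 FPKM with ES (log2 fold change 0.46, adjusted p = 0.022), and the inhibitory Fc receptor FCGR2B at 1.02 and 0.960 FPKM with DMSO and 2.05 and 1.61 FPKM with ES (log2 fold change 0.50, adjusted p = 0.0432). Surface molecules of activation had 3 rises and 2 falls among 17, of which 2 rises, IL2RA and TNFRSF13B, passed the filter through the ES libraries alone, which left 1 rise among the other 15. CD86, a co-stimulator of T cells, was at 14.9 and 13.2 FPKM with DMSO and 19.5 and 22.8 FPKM with ES (log2 fold change 0.56, adjusted p = 0.0163), and IL4R, the interleukin 4 receptor, was at 80.8 and 80.6 FPKM with DMSO and 69.0 and 60.4 FPKM with ES (log2 fold change -0.32, adjusted p = 0.0467). IL2RA and TNFRSF13B, the receptors CD25 and TACI, rose from below 1 FPKM to 1.52 and 1.89 and 1.25 and 1.56 FPKM. The kinase SGK1, which is induced by glucocorticoids and growth factors, was at 14.7 and 12.9 FPKM with DMSO and 8.80 and 6.46 FPKM with ES (log2 fold change -0.79, SE 0.13, adjusted p = 0.0164), while DDIT4, another glucocorticoid target and an inhibitor of mTORC1, was at 20.6 and 20.2 FPKM with DMSO and 32.3 and 32.1 FPKM with ES (log2 fold change 0.63, SE 0.09, adjusted p = 0.0106), and TXNIP, which restrains thioredoxin and glucose uptake, was at 6.46 and 6.76 FPKM with DMSO and 9.15 and 10.7 FPKM with ES (log2 fold change 0.52, adjusted p = 0.0199).

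Some genes of ribosome production fell by small amounts. Of 40 genes of ribosome biogenesis none rose and 7 fell, beside 6.74% and 1.00% of all rows tested. With ES 34 lay wholly lower and 1 wholly higher, beside 17.1% and 48.2%, and the median was -0.21. Median-ratio scaling took the falls to 21, while leaving out any 1 control library, or any 1 FDX1-OE DMSO library, left none. NOP16, a nucleolar protein, was at 95.3 and 90.8 FPKM with DMSO and 72.6 and 66.9 FPKM with ES (log2 fold change -0.41, SE 0.08, adjusted p = 0.0226), and PA2G4, a growth regulator that sits on ribosomes, was at 212 and 205 FPKM with DMSO and 168 and 157 FPKM with ES (log2 fold change -0.36, adjusted p = 0.0353). NCL, the abundant nucleolar protein nucleolin, was at 486 and 491 FPKM with DMSO and 409.8 and 371 FPKM with ES (log2 fold change -0.32, adjusted p = 0.0387). MYC, which drives these genes, was at 113 and 107 FPKM with DMSO and 89.7 and 76.1 FPKM with ES and did not pass (log2 fold change -0.41, adjusted p = 0.171). Of 80 cytosolic ribosomal proteins 2 fell, RPL10A (log2 fold change -0.23, adjusted p = 0.0384) and RPL3 (log2 fold change -0.22, adjusted p = 0.0473), and the median was -0.02, with 8 falls under median-ratio scaling. Among 11 constitutive SR splicing factors 3 fell, SRSF7, SRSF1 and SRSF2, by 0.25, 0.31 and 0.26 on the log2 scale (adjusted p = 0.0359, 0.0387 and 0.0418).

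Some genes of lipid synthesis fell. Of 23 genes of cholesterol synthesis and its control 3 fell and none rose, beside 1.00% and 6.74% of all rows tested. With ES 15 lay wholly lower, beside 17.1% of all rows tested, and the median was -0.12. INSIG1, which holds back the sterol-sensing factor, was at 37.4 and 33.8 FPKM with DMSO and 25.5 and 25.9 FPKM with ES (log2 fold change -0.45, SE 0.08, adjusted p = 0.022). DHCR7 and FDPS fell by 0.26 and 0.23 (adjusted p = 0.0422 and 0.045). In fatty acid synthesis 2 of 13 fell, FASN, the synthase, at 101 and 98.5 FPKM with DMSO and 72.9 and 67.1 FPKM with ES (log2 fold change -0.50, SE 0.06, adjusted p = 0.00694), and SREBF1, the factor that controls it, at 28.1 and 27.5 FPKM with DMSO and 21.1 and 22.4 FPKM with ES (log2 fold change -0.34, adjusted p = 0.0304). All 5 held with median-ratio scaling. Leaving out any 1 control library, or any 1 FDX1-OE DMSO library, left none of the 3 cholesterol calls. SCD, the desaturase, was at 95.7 and 93.2 FPKM with DMSO and 70.1 and 65.4 FPKM with ES and missed the threshold (log2 fold change -0.47, adjusted p = 0.0524). Glycolysis, with 1 rise (ENO2, log2 fold change 0.53, adjusted p = 0.0329) among 21, the tricarboxylic acid cycle, with no call among 21, and hypoxia targets, with none among 15, had few calls. The proteasome had no call among 34 subunits. With median-ratio scaling the falls among glycolysis, hypoxia and proteasome genes were 1, 1 and 3, and ENO2 was lost (adjusted p = 0.0593).

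Of 36 mitotic genes 6 rose, none fell and 28 lay wholly higher, beside 6.74% called higher and 48.2% wholly higher over all rows tested. Their median was 0.15. Median-ratio scaling left 1 rise and a median of 0.04, and leaving out any 1 control library or FDX1-OE DMSO library left no call. CDC25C, the phosphatase that starts mitosis, was at 3.95 and 4.31 FPKM with DMSO and 6.22 and 6.83 FPKM with ES (log2 fold change 0.55, adjusted p = 0.0253) and is the 1 that held. TOP2A, which untangles chromosomes, was at 58.0 and 58.2 FPKM with DMSO and 74.8 and 83.7 FPKM with ES (log2 fold change 0.44, adjusted p = 0.045, and 0.0933 with that scaling). Of 39 genes of S phase 1 rose, the cyclin CCNE2 at 10.8 and 12.1 FPKM with DMSO and 15.7 and 16.5 FPKM with ES (log2 fold change 0.46, adjusted p = 0.026), and 1 fell, the flap nuclease FEN1 at 116 and 115 FPKM with DMSO and 93.7 and 90.2 FPKM with ES (log2 fold change -0.33, adjusted p = 0.0283), and median-ratio scaling gave no rise and 6 falls.

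RNAs of the mitochondrial genome moved in both directions. All 37 were members, and their order along the genome is used here only to describe them. Of the 13 mRNAs 3 rose and 1 fell, and of the 24 rRNAs and tRNAs 6 rose and 2 fell. The shares over all rows tested were 6.74% called higher and 1.00% called lower. MT-ND2, a subunit of complex I, was at 2752 and 2701 FPKM with DMSO and 4404 and 4652 FPKM with ES (log2 fold change 0.73, SE 0.09, adjusted p = 0.00753), and its neighbour MT-ND1 was at 3038 and 3012 FPKM with DMSO and 3877 and 3746 FPKM with ES (log2 fold change 0.33, adjusted p = 0.0795). MT-ND3 was at 1072 and 1151 FPKM with DMSO and 1454 and 1568 FPKM with ES (log2 fold change 0.44, adjusted p = 0.0305), and MT-ND4L at 7907 and 7884 FPKM with DMSO and 10244 and 10276 FPKM with ES (log2 fold change 0.38, adjusted p = 0.0433). MT-ND5, downstream of these, fell from 2738 and 2728 FPKM to 1889 and 1703 FPKM (log2 fold change -0.61, SE 0.13, adjusted p = 0.0326). MT-ND6, which is read from the other strand opposite the end of MT-ND5, was at 531 and 519.7 FPKM with DMSO and 366 and 349.7 FPKM with ES (log2 fold change -0.55, adjusted p = 0.0627). Whether the counting kept the strands apart is not given, so MT-ND6 and its neighbours cannot be told apart with certainty. Among the cytochrome oxidase mRNAs MT-CO3 was at 9550.1 and 9564 FPKM with DMSO and 7174 and 6679.7 FPKM with ES (log2 fold change -0.47, adjusted p = 0.0711) and MT-CO1 at 12577 and 12294 FPKM with DMSO and 10604 and 9823 FPKM with ES (log2 fold change -0.28, adjusted p = 0.11), lower in both ES libraries but not called. Of the 4 mRNA calls, MT-ND2 was lost in 4 of the 16 alternatives, MT-ND3 and MT-ND5 in 8 each and MT-ND4L in 10, each of them without control DMSO replicate 1 or 2 or control ES replicate 2. MT-ND1 and MT-CO1 were picked out after their values were seen.

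Transfer RNAs lie between these mRNAs and punctuate the long precursor. MT-TK, between MT-CO2 and MT-ATP8, was at 5.93 and 8.93 FPKM with DMSO and 53.5 and 67.1 FPKM with ES (log2 fold change 2.88, adjusted p = 0.000344), MT-TR, between MT-ND3 and MT-ND4L, at 11.2 and 10.1 FPKM with DMSO and 38.5 and 44.7 FPKM with ES (log2 fold change 1.87, adjusted p = 0.000253), and MT-TM, before MT-ND2, at 46.2 and 41.2 FPKM with DMSO and 121 and 136 FPKM with ES (log2 fold change 1.54, adjusted p = 0.000825). The falls were MT-TD (log2 fold change -0.74, adjusted p = 0.0141) and MT-TE (log2 fold change -0.67, adjusted p = 0.0057). A tRNA gene is shorter than a typical library fragment, so an FPKM for it may hold fragments of unprocessed precursor or of its neighbours, and these values are uncertain. With median-ratio scaling the mRNAs had 1 rise (MT-ND2) and 4 falls and the rRNAs and tRNAs 5 rises and 2 falls. Among nuclear genes of the same machines, 1 of 38 complex I subunits rose and none fell. Subunits of complexes II to V had 1 rise and 1 fall among 40, and mitochondrial ribosomal proteins 2 rises and 2 falls among 78. Over all rows tested 6.74% were called higher and 1.00% lower. Median-ratio scaling left no rise in these lists, and their falls became 0, 3 and 6.

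**Figure D5:**
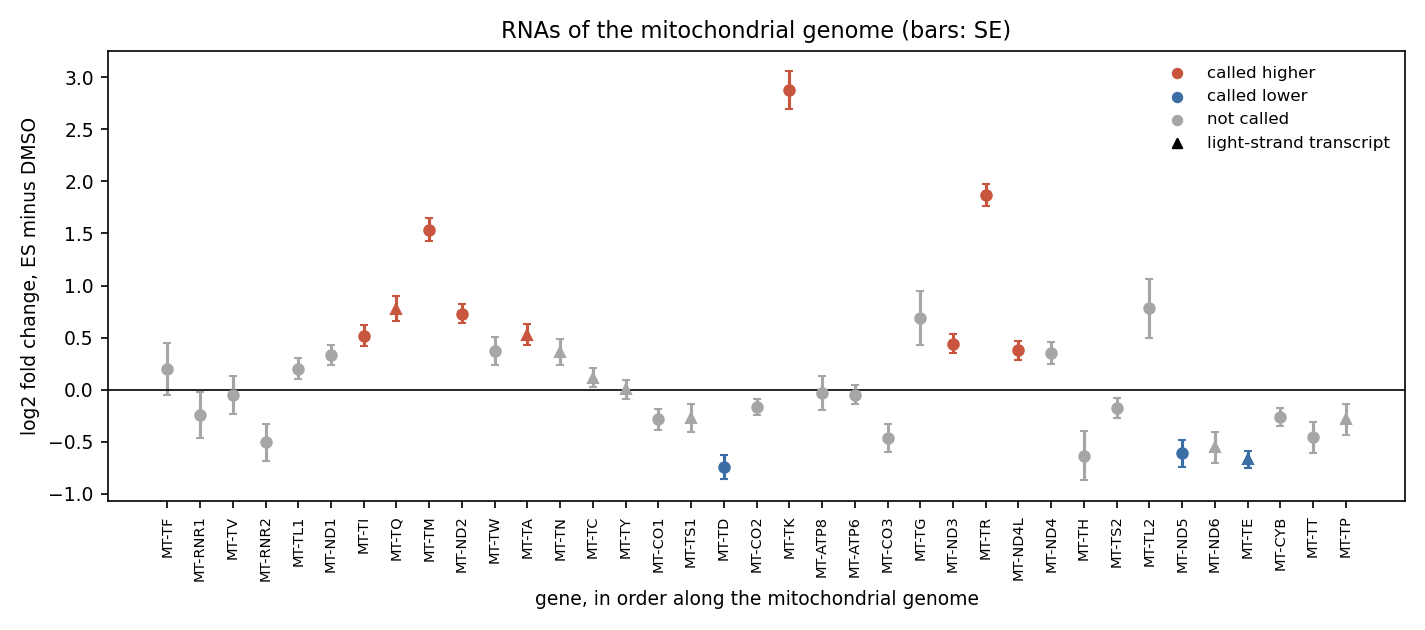
Log2 fold change, ES minus DMSO, with its SE, for the 37 RNAs of the mitochondrial genome in gene order, circles for transcripts of the heavy strand and triangles for those of the light strand, red where called higher and blue where called lower. The stretches from MT-TL1 to MT-ND2 and from MT-TG to MT-ND4 lie above zero, and the stretches from MT-CO1 to MT-CO2 and from MT-ND5 to MT-TP lie below it.

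Of 31 autophagy and lysosome genes 5 rose, none fell and 27 lay wholly higher, beside 6.74% called higher and 48.2% wholly higher over all rows tested. The median of 0.23 exceeded the 0.09 of all rows tested. OPTN, a receptor that marks damaged mitochondria for autophagy, was at 1.68 and 1.72 FPKM with DMSO and 4.02 and 3.88 FPKM with ES (log2 fold change 0.88, SE 0.10, adjusted p = 0.00525). The protease CTSB was at 8.53 and 8.80 FPKM with DMSO and 13.6 and 15.5 FPKM with ES (log2 fold change 0.68, adjusted p = 0.0191), MAP1LC3B, the LC3 protein of autophagosomes, at 38.5 and 35.2 FPKM with DMSO and 48.7 and 46.9 FPKM with ES (log2 fold change 0.37, adjusted p = 0.0198), and its relative GABARAPL1 at 1.87 and 1.67 FPKM with DMSO and 3.59 and 2.96 FPKM with ES (log2 fold change 0.62, adjusted p = 0.0221). ATG13 rose by 0.33 (adjusted p = 0.0325). With median-ratio scaling 3 calls remained, OPTN, CTSB and GABARAPL1, and the median was 0.12. Without control DMSO replicate 1 or control ES replicate 1 there was 1 call, and without control DMSO replicate 2 or control ES replicate 2 there was none. Of 356 zinc finger genes named ZNF 15 rose and 1 fell, beside 6.74% and 1.00% of all rows tested, and their median was 0.15. Of the 356, 11 passed the filter through the ES libraries alone, 1 of them called. With median-ratio scaling 3 rose and 3 fell. Among 15 genes of chromatin and nucleic acid editing APOBEC3G (log2 fold change 0.76, adjusted p = 0.0193), APOBEC3C (log2 fold change 0.46, adjusted p = 0.0243) and TET2 (log2 fold change 0.52, adjusted p = 0.0285) rose and the maintenance methyltransferase DNMT1 fell from 192 and 184 FPKM to 157 and 154 FPKM (log2 fold change -0.27, adjusted p = 0.0262).

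The largest rises at a mean log2 level of 3 or more also included the next 6 genes. PKIG, an inhibitor of protein kinase A, was at 19.6 and 18.7 FPKM with DMSO and 40.5 and 44.6 FPKM with ES (log2 fold change 1.11, SE 0.09, adjusted p = 0.000825). VIM, the intermediate filament vimentin, was at 25.1 and 23.7 FPKM with DMSO and 44.5 and 55.3 FPKM with ES (log2 fold change 1.00, SE 0.16, adjusted p = 0.0146). UBE2L6, the enzyme that conjugates ISG15 and one of the 29 called interferon-stimulated genes, was at 11.1 and 10.9 FPKM with DMSO and 25.9 and 24.4 FPKM with ES (log2 fold change 1.13, SE 0.15, adjusted p = 0.00901). CRIP1, a LIM-domain protein, was at 11.9 and 9.30 FPKM with DMSO and 22.8 and 23.8 FPKM with ES (log2 fold change 1.08, adjusted p = 0.0397), SP140, a nuclear body protein of B cells, at 6.54 and 6.01 FPKM with DMSO and 11.6 and 12.2 FPKM with ES (log2 fold change 0.83, adjusted p = 0.019), and TTYH3, a membrane protein of the tweety family, at 6.80 and 7.53 FPKM with DMSO and 12.3 and 14.4 FPKM with ES (log2 fold change 0.81, adjusted p = 0.0231). Each of these 6 had both ES libraries above both DMSO libraries, as the rule for naming them required. At lower levels the growth factor midkine, MDK, was at 1.35 and 1.86 FPKM with DMSO and 9.89 and 9.27 FPKM with ES (log2 fold change 2.03, SE 0.17, adjusted p = 0.00147). ITM2C was at 0.609 and 0.599 FPKM with DMSO and 4.62 and 5.03 FPKM with ES (log2 fold change 1.86, adjusted p = 0.000946), the iron-binding surface protein MELTF at 1.24 and 1.35 FPKM with DMSO and 5.90 and 6.57 FPKM with ES (log2 fold change 1.66, adjusted p = 0.00173) and TMEM54 at 0.433 and 0.541 FPKM with DMSO and 3.02 and 3.86 FPKM with ES (log2 fold change 1.57, adjusted p = 0.0103). ITM2C and TMEM54 passed the filter through the ES libraries alone.

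The largest called fall of all members was C22orf34, at 6.28 and 6.33 FPKM with DMSO and 0.630 and 0.930 FPKM with ES (log2 fold change -2.04, SE 0.11, adjusted p = 0.000253). It passed the filter through the DMSO libraries alone, which favours a fall. DBNL, an actin-binding adaptor of antigen receptors, was at 112 and 79.7 FPKM with DMSO and 54.7 and 43.1 FPKM with ES, with its DMSO libraries well apart (log2 fold change -0.95, SE 0.18, adjusted p = 0.0241). YRDC, which modifies tRNAs, was at 24.4 and 23.2 FPKM with DMSO and 16.9 and 12.9 FPKM with ES (log2 fold change -0.65, adjusted p = 0.0317), LYPD6B at 10.0 and 9.61 FPKM with DMSO and 5.84 and 6.40 FPKM with ES (log2 fold change -0.60, adjusted p = 0.0243) and MAP3K7CL at 19.1 and 18.3 FPKM with DMSO and 13.3 and 11.8 FPKM with ES (log2 fold change -0.54, adjusted p = 0.0124). At a mean log2 level of 1 to 3, where C22orf34 also lies, CCL3L3, a chemokine with near copies in the genome and so uncertain, was at 7.03 and 4.96 FPKM with DMSO and 2.71 and 2.69 FPKM with ES (log2 fold change -0.90, adjusted p = 0.0381). The others were PYROXD1 (-0.63), ABCA12 (-0.57), POU3F1 (-0.53), EPOR (-0.52), CTTN (-0.50), LENG9 (-0.47), IRS1 (-0.45) and CITED2 (-0.39), with adjusted p from 0.0313 to 0.0473.

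The same drug was given to FDX1-OE cells, with their own DMSO libraries, and the difference between the 2 effects was tested as the interaction term of the fit. In FDX1-OE cells 60.8% of all rows tested were called, and the interaction was called for 19.0%. Of the 874 members called in control cells 824 were called in the same direction in FDX1-OE cells, 42 were not called and 8 were called in the opposite direction. The interaction passed for 400 of the 874, and in 377 of them the effect in FDX1-OE cells was the larger one in the same direction. These interaction results are for the values as deposited alone. Median-ratio scaling divides control DMSO by 0.937 and 0.935 and control ES by 1.00 and 1.03. It divides FDX1-OE DMSO by 0.940 and 0.937 and FDX1-OE ES by 1.15 and 1.14. That scaling would therefore lower the interaction of most genes, and counts under it are not given here. MT2A rose by 2.64 in control cells and 4.35 in FDX1-OE cells, a difference of 1.70 (adjusted p = 0.00906). For MX1 the effects were 2.69 and 6.50, a difference of 3.81 (adjusted p = 0.000453). The interaction was called for all 5 metallothioneins, 41 of the 42 interferon-stimulated genes and 18 of the 31 ATF4 targets. For other genes the interaction did not pass. ZFP36L1 moved by -0.89 and -0.88, a difference of 0.01 (adjusted p = 0.955). ISCU moved by 0.54 and 0.60, a difference of 0.07 (adjusted p = 0.613), and S100A11, a calcium-binding protein, by 0.81 and 0.89, a difference of 0.08 (adjusted p = 0.66).

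The 8 genes called in both cells in opposite directions are given here. NFKBIA fell by 0.49 on the log2 scale in control cells and rose by 0.64 in FDX1-OE cells, a difference of 1.14 (adjusted p = 0.00208). LTA moved by -0.34 and 0.37, a difference of 0.71 (adjusted p = 0.00739), CD83 by -0.39 and 0.42, a difference of 0.81 (adjusted p = 0.00695), and KLF10 by -0.35 and 0.23, a difference of 0.58 (adjusted p = 0.0153). CKS2, a regulator of cyclin-dependent kinases, moved by 0.26 and -0.19, and CD52, a lymphocyte surface protein, by 0.39 and -0.29, both named, like the other opposite genes, because of this difference. The remaining 2 of the 8 are AC010733.1 and a Y RNA row whose symbol other rows share. C22orf34 fell by 2.04 in control cells and by less in FDX1-OE cells (-0.64), a difference of 1.41 (adjusted p = 0.00209).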

How the data were processed

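RNA of WSU-DLCL2 cells was sequenced from 8 libraries, 2 in each of 4 groups. The values deposited by the authors are taken as FPKM, with 1 value per gene symbol row. No header names the unit, which was read from the values. Per the submitters' processing notes, the build was hg19 and the tools included HTSeq, HISAT2 and R 3.2.0, with no roles given. The handling of strands and the absolute depth are not given in the sources used here, so no counting interval can be set. Rows sharing a symbol (1059 in the files, 36 among members) were kept apart.

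From these values log2(FPKM + 1) was computed, which understates the change of low genes. Rows with at least 1 FPKM in at least 2 of the 8 libraries (12063) entered limma 3.58.1 under R 4.3.3 as 4 group means with a mean-variance trend, with 4 residual and 4.25 prior degrees of freedom. Tests were two-sided, with Benjamini-Hochberg adjustment over all 12063. The members' rows are printed. The script was tested on simulated data.

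Named genes followed a rule: FDX1, then up to 15 rises and 15 falls among called members with a mean log2 of at least 3 and no overlap between groups, 10 of each at a mean log2 of 1 to 3 (clone-type, tRNA and shared symbols passed over), up to 6 members of smallest p per list described, and every tested metallothionein. A few genes are not reported here and stand in no list. Members and lists were chosen with earlier results of these data known. Alternatives changed the pseudocount to 0.1, the filter, the scaling, the libraries fitted, their weights and the replicate block, or left out 1 library. Promoter windows come from RefSeq (GRCh38.p14) and were matched by symbol for 8358 members. The build named in the notes differs from theirs, so they are used for their letters alone. For every element, shares of genes count each gene by its window with the most matches. Shares of all windows count windows singly, so the shares are unlike measures.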

Additional observations from a re-analysis of the deposited data

Results flagged for a closer look

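The effect of ES differed between FDX1-OE and control cells, by the interaction term of the limma fit with Benjamini-Hochberg adjustment over all rows tested, for 106 of 186 named genes. The values here are that difference, FDX1-OE minus control, on the log2 scale, and over all rows tested 19.0% were called in this way. They are for the values as deposited, and median-ratio scaling would make the positive ones smaller. Many named genes were chosen for their ES effect in this same fit, and some because of the interaction itself. The count among named genes therefore cannot be compared with that share.

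Among genes that were higher with ES in both cells and more so in FDX1-OE cells, it was 3.81 for MX1, 3.13 for USP18, 2.99 for IFI44, 2.97 for IFIT3, 2.90 for IFI6, 2.74 for OAS2, 2.70 for IRF7, 2.13 for MT1G, 2.06 for DDX58, 1.96 for IRF9, 1.89 for EPHX1, 1.87 for LGALS9, 1.71 for MT1H, 1.70 for MT2A and 1.68 for ISG15. It came to 1.62 for CCL22, 1.52 for STAT2, 1.51 for MT-TK, 1.51 for IL2RA, 1.50 for CCNE2, 1.49 for MT-TM, 1.46 for MT-TR, 1.46 for TXNIP, 1.41 for HMOX1, 1.38 for CCL5, 1.27 for MT1F, 1.26 for UBE2L6, 1.22 for SLC6A9, 1.21 for WARS1, 1.19 for CTH and 1.06 for IRF4. For further genes it stood at 1.03 for MT1X, 1.02 for LGALS3, 1.02 for NQO1, 0.99 for SESN2, 0.98 for ATF5, 0.97 for HLA-B, 0.94 for ADAR, 0.91 for PCK2, 0.90 for BMF, 0.89 for OPTN, 0.88 for SLC30A1, 0.88 for CTSB, 0.87 for SLC7A11, 0.84 for ITM2C, 0.83 for APOBEC3G and 0.82 for BST2. Smaller differences were 0.78 for NLRC5, 0.74 for ERAP2, 0.74 for CD86, 0.73 for FCGR2B, 0.72 for FTH1, 0.71 for TRIB3, 0.69 for SP140, 0.67 for SLC39A9, 0.67 for DAPP1, 0.64 for PSAT1, 0.61 for TET2, 0.58 for APOBEC3C, 0.57 for MAP1LC3B, 0.54 for SESN3, 0.51 for ATG13 and 0.51 for FTL. The smallest of these were 0.50 for BLK, 0.43 for ANXA5, 0.40 for IL10RB and 0.36 for B2M. Genes that were lower with ES in both cells, and more so in FDX1-OE cells, gave -1.26 for SDF2L1, -1.05 for EGR1, -1.02 for NOP16, -0.85 for MT-CO3, -0.83 for MT-ND6, -0.82 for MYC, -0.80 for MT-ND5, -0.79 for HSPA5, -0.73 for DUSP2, -0.73 for FASN, -0.72 for SNHG16, -0.72 for RPL10A, -0.71 for MT-CO1, -0.70 for RPL3 and -0.64 for PTPN6. More of them gave -0.59 for SCD, -0.50 for IL4R, -0.47 for SREBF1, -0.45 for FDPS, -0.44 for PCBP1, -0.44 for VARS1, -0.43 for DHCR7, -0.41 for NCL, -0.40 for PA2G4, -0.39 for DANCR, -0.38 for TRAP1 and -0.35 for BCL6. Where the shift had the same direction in both cells and was the smaller one in FDX1-OE cells, the difference was 1.41 for C22orf34 and -0.86 for LGALS1. Where the directions were opposite, it was 0.58 for KLF10, 1.14 for NFKBIA, 0.71 for LTA, 0.81 for CD83, -0.59 for MT-ND4L, 1.16 for CCL3L3, 0.62 for CTTN, -0.46 for CKS2, -0.68 for CD52 and 1.93 for AC010733.1.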

How the results depend on the processing

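Members called higher and lower numbered 754 and 120. They became 389 and 393 with median-ratio scaling, 47 and 5 with no filter on low values, 172 and 57 after quantile normalisation, 1255 and 349 in a fit of the control-cell libraries alone and 1901 and 459 with array weights, and leaving out 1 of the 8 libraries gave from 23 to 1758 higher and from 5 to 464 lower. The cause was not tested. A pseudocount of 0.1 and a test of the members alone kept both within 1.5 times. With the replicate number as a block they were 587 and 78. The labels do not say that a number marks a shared culture, and deviations of same-numbered libraries correlated between -0.0499 and 0.0793 over the 6 pairs of groups, so the block is given here only. Of 152 named genes called, 18 held in all 16 alternatives: ANXA2, C22orf34, HMOX1, IFI6, ITM2C, MDK, MELTF, MT-TK, MT-TM, MT-TR, MT1F, MT1G, MT1H, MT1X, MT2A, MX1, PCK2 and PKIG. Without control ES replicate 2, 132 of the 152 lost the call, 24 did after scaling by median ratio, 28 in the blocked fit and 68 after quantile normalisation. Of the 18, IFI6, ITM2C and MX1 passed the filter through the ES libraries alone and C22orf34 through the DMSO libraries alone. No called gene changed direction. Uncalled genes did: with median-ratio scaling MTF1 went to -0.0260, SLC30A1 to -0.0270, TXNRD1 to -0.0249 and HLA-DRA to -0.0722, and quantile normalisation put MTF1 at -0.0764 and SLC30A1 at -0.12. Leaving out 1 library, DDIT3 ranged from -0.62 to 0.0430 (without control DMSO replicate 1) and IGHJ5 from -4.05 to 0.56 (without control ES replicate 2). The depth is unknown, so a gene at 0 was not detected, which does not show that it is absent.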

Other observations

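Small families of calcium- and sugar-binding proteins stood among the rises, and their lists were drawn up after their values were seen. Their counts therefore cannot be compared with the 6.74% called higher over all rows tested. Of 6 annexins, which bind membranes when calcium is present, 3 rose and none fell. ANXA2 was at 10.4 and 10.3 FPKM with DMSO and 19.3 and 22.3 FPKM with ES (log2 fold change 0.93, adjusted p = 0.00283), ANXA5 at 35.7 and 34.3 FPKM with DMSO and 46.0 and 51.1 FPKM with ES (log2 fold change 0.46, adjusted p = 0.0124) and ANXA6 at 26.2 and 25.9 FPKM with DMSO and 35.9 and 38.7 FPKM with ES (log2 fold change 0.50, adjusted p = 0.0209). Of 5 S100 proteins 3 rose. S100A11 was at 23.4 and 24.0 FPKM with DMSO and 40.4 and 44.3 FPKM with ES (log2 fold change 0.81, adjusted p = 0.00397), S100A10, the partner of ANXA2, which passed the filter through the ES libraries alone, at 0.962 and 0.726 FPKM with DMSO and 2.77 and 3.10 FPKM with ES (log2 fold change 1.09, adjusted p = 0.0046), and S100A4 at 2.24 and 1.51 FPKM with DMSO and 4.24 and 7.18 FPKM with ES, with its ES libraries well apart (log2 fold change 1.20, adjusted p = 0.0218). Of 4 galectins 3 rose. LGALS1 was at 65.2 and 57.7 FPKM with DMSO and 109.9 and 138 FPKM with ES (log2 fold change 1.00, adjusted p = 0.0124), LGALS3 at 1.25 and 1.42 FPKM with DMSO and 4.50 and 3.96 FPKM with ES (log2 fold change 1.16, adjusted p = 0.0046), and LGALS9 passed the filter through the ES libraries alone at 0.0295 and 0.194 FPKM with DMSO against 1.21 and 1.14 FPKM with ES (log2 fold change 0.97, adjusted p = 0.0212). All 9 calls held with median-ratio scaling. Without control ES replicate 2 there was 1 annexin call, no S100 call and 1 galectin call.

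Host genes of small nucleolar RNAs had 1 rise and 4 falls among 30. SNHG29 was at 229.8 and 229 FPKM with DMSO and 289.9 and 313 FPKM with ES (log2 fold change 0.39, adjusted p = 0.0189), while SNHG16 was at 36.1 and 35.4 FPKM with DMSO and 27.6 and 25.9 FPKM with ES (log2 fold change -0.41, adjusted p = 0.0244) and DANCR at 189 and 180.2 FPKM with DMSO and 153 and 139 FPKM with ES (log2 fold change -0.34, adjusted p = 0.0228). By class of gene in GENCODE release 29, matched by symbol for 11015 members, beside 6.74% higher and 1.00% lower over all rows tested, 670 of 9753 protein-coding members rose and 102 fell, 35 of 652 long non-coding members rose and 9 fell, and 19 of 390 pseudogenes rose and 2 fell.

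Members with a large difference and no call numbered 19, of which 12 were higher and 7 lower by at least 1 on the log2 scale. TOMM6, a small mitochondrial import protein, was at 129 and 131 FPKM with DMSO and 6.57 and 129.7 FPKM with ES, so 1 ES library alone was low (log2 fold change -2.06, adjusted p = 0.273). IGHJ5, a joining segment of the antibody heavy chain, was at 51.6 and 51.7 FPKM with DMSO and 76.4 and 2.18 FPKM with ES (log2 fold change -1.75, adjusted p = 0.359), and NDUFA7, of complex I, at 58.1 and 18.5 FPKM with DMSO and 68.7 and 65.7 FPKM with ES (log2 fold change 1.01, adjusted p = 0.156), again with 1 library apart. AL662884.1 was at 2.42 and 2.40 FPKM with DMSO and 0.0208 and 0.0174 FPKM with ES, with close replicates in both groups (log2 fold change -1.74, adjusted p = 0.123). AL662884.1 passed the filter through the DMSO libraries alone, which favours a fall. These 4 were picked out after their values were seen.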
